A study of Mus musculus with 4 samples.

Results

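Genes of glutamate signalling other than the NMDA receptor subunits were followed in the whole brain of adult mice that had received ethanol as newborns. Glutamate is the main excitatory transmitter of the brain. AMPA and kainate receptors are ion channels that glutamate opens, delta receptors are related proteins that hold synapses together, and metabotropic receptors signal through G proteins, several of them from the axon terminal, where they restrain release. Vesicular transporters fill synaptic vesicles with glutamate and plasma membrane transporters clear it from the cleft. Astrocytes turn it into glutamine, which returns to neurons as the raw material for new transmitter.

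The list held 31 genes, chosen by gene symbol and not by their signals, and a probe set was a member when the annotation of the array platform named exactly 1 of them. These were 32 of the 35556 probe sets on the arrays, and they covered 30 of the 19938 genes that a probe set names alone. No probe set was named for Gls2, a glutaminase, and it was not analysed here. Glul and Slc38a1 each had 2 probe sets and every other gene had 1.

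The 4 Mouse Gene 1.0 ST arrays comprised 2 of ethanol-exposed mice (ethanol 2 and ethanol 4) and 2 of control mice (control 1 and control 3). Ethanol-exposed C57BL/6J pups were injected under the skin on postnatal days 4 and 7 with 2 doses of 2.5 g/kg each, as 20% ethanol in saline with 2 hours between doses. Control pups were given saline alone on the same days. Each array carried RNA pooled from the brains of 3 males of different litters, 12 mice in all, and the labels state that ethanol-exposed and control mice were littermates without saying which pools match. The labels give weaning at day 25 and sacrifice at day 60, and the study's methods give other days. The groups follow the title and source name of each array. A separate treatment entry in the labels names the opposite group for control 1 and for ethanol 4, so every difference below depends on the titles being right.

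Signals are on a log2 scale, and a difference is ethanol minus control. The medians of all probe sets were 6.33 on ethanol 2 and 6.38 on ethanol 4, against 6.61 on control 1 and 6.51 on control 3, and the median difference over all probe sets was -0.15. Each difference was therefore computed both from the deposited values and from values quantile-normalized once more, where that median was -0.00424. Neuronal markers were bright on all arrays, with a mean log2 signal over 8 genes of 12.28 on ethanol 2 and 12.31 on ethanol 4, against 12.40 on control 1 and 12.32 on control 3. The pituitary hormone transcripts Gh, Prl and Cga set ethanol 2 apart. Gh had a signal of 6.53 there and 12.26 on ethanol 4, against 12.24 on control 1 and 12.19 on control 3. Pomc, the other pituitary marker, was dim and lower on both ethanol arrays. It had 5.48 on ethanol 2 and 5.50 on ethanol 4, against 5.95 on control 1 and 6.09 on control 3. The Pomc difference, -0.53 as deposited and -0.35 after normalization, was past the limits given next in both forms. The study's limits were a difference of at least 1.2-fold, which is 0.263 on the log2 scale, and an unadjusted p under 0.05, here from limma's moderated test (two-sided). That p borrows the spread of all probe sets, whereas an exact permutation of 2 arrays against 2 cannot go below 0.333. In whole-brain RNA, fewer cells of a type and less RNA per cell cannot be told apart.

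Few members were past these limits. As deposited, 3 of the 32 were lower in ethanol (Grid1, Grm2 and Grm4), against 17.9% of all probe sets, and 1 was higher (a probe set of Glul), against 2.23% of all. After quantile normalization 2 were lower (Grm2 and Grm4), against 5.87% of all, and 2 were higher (Grik4 and the same Glul probe set), against 5.71% of all. In percent, the members past the limits as deposited were 9.38% lower and 3.12% higher, and after quantile normalization 6.25% in each direction, so that the normalized shares were near those of the whole array and the deposited share of lower probe sets was below it. No member reached an adjusted p of 0.05 in limma with Benjamini-Hochberg adjustment over all probe sets, in either form, and the smallest were 0.171 as deposited and 0.279 after normalization. Across the array 0.00281% did as deposited and 0.00562% did after normalization. An unadjusted p under 0.05 in limma was found for 5 members in each form, beside 22.2% of all probe sets as deposited and 13.6% after normalization. The methods' ANOVA put 2 members lower and 0 higher past the limits as deposited, where 8.11% and 0.765% of all probe sets were.

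**Figure D1:**
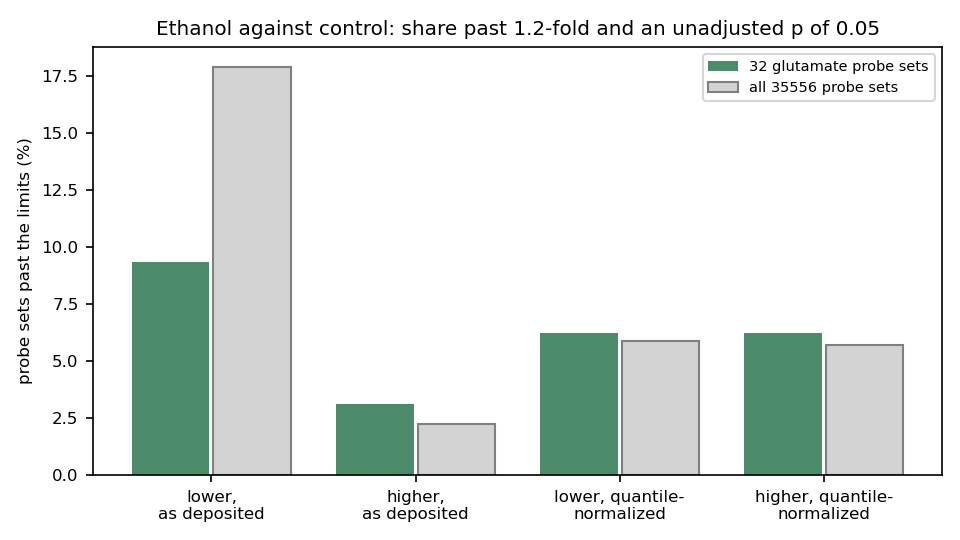
Percent of probe sets past 1.2-fold and an unadjusted p of 0.05, lower or higher on the ethanol arrays than on the control arrays, for the 32 glutamate probe sets (green) and all 35556 probe sets (grey). Among the glutamate probe sets 9.38% were lower as deposited, against 17.9% of all, and in the quantile-normalized values the bars of each pair were close.

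How the members stood against the whole array depended on the scaling. Their median difference was -0.10 as deposited, against -0.15 over all probe sets, and -0.05 after quantile normalization, against -0.00424. Regardless of sign, the median size was 0.119 among members and 0.174 among all probe sets as deposited. After normalization it was 0.0861 among members and 0.121 among all. The members were also brighter, with mean deposited signals of 9.96 to 10.08 per array, against 6.97 to 7.17 over all probe sets. The part of brightness in these sizes and in the shares past the limits was not tested. The ethanol arrays were both below the control arrays for 19 members, where 52.7% of all probe sets had this order, and both above them for 2 members, where 7.25% of all had it. After normalization the groups were apart with ethanol lower for 13 members (40.6%) and with ethanol higher for 6 (18.8%), beside 24.9% and 24% of all probe sets.

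**Figure D2:**
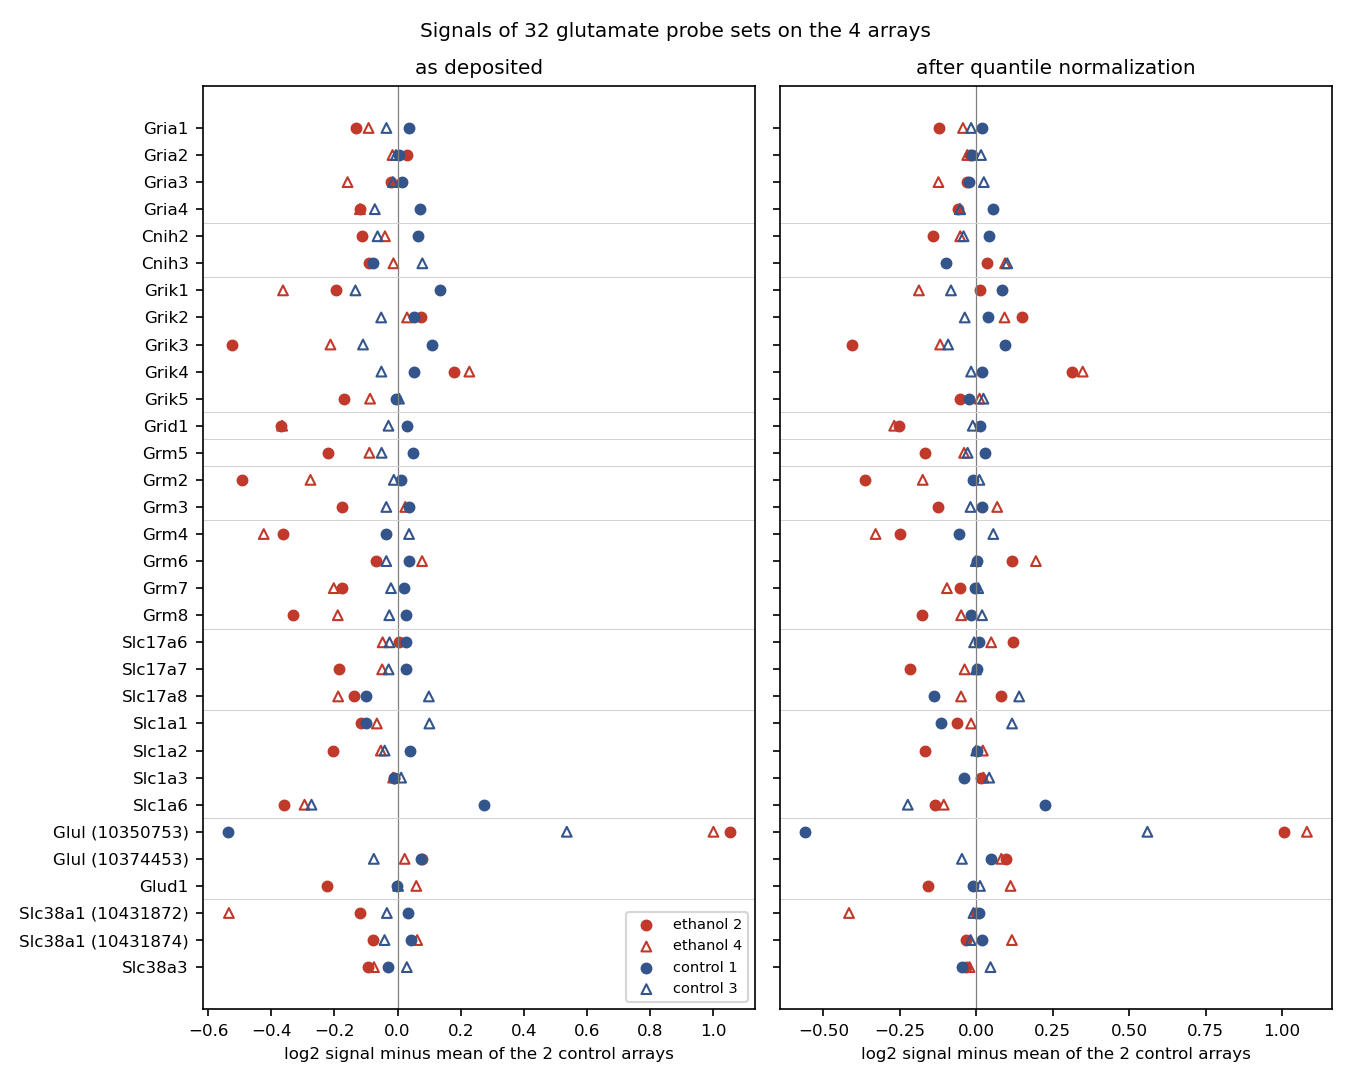
Log2 signal of each of the 32 glutamate probe sets on the 4 arrays (ethanol 2 and ethanol 4 in red, control 1 and control 3 in blue), minus the mean of both control arrays, as deposited (left) and after quantile normalization (right). Grey lines separate the roles, and the first Glul probe set is the row with the widest gap between the control arrays, 1.07 as deposited.

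The metabotropic receptors held both members that were lower in each form. Grm4, a group III receptor of axon terminals that reduces transmitter release, had log2 signals of 9.57 on ethanol 2 and 9.51 on ethanol 4, against 9.90 on control 1 and 9.97 on control 3. The arrays of each group lay within 0.073 of each other and the groups did not overlap. Grm4 was lower by a log2 difference of -0.39 (SE 0.09, 95% interval -0.62 to -0.16), or 0.761 of the control signal, with an unadjusted p of 0.00802 and an adjusted p of 0.171 in limma. Relative to the median of all probe sets the difference was -0.25. After quantile normalization it was -0.29 (unadjusted p = 0.0261, adjusted p = 0.326 in limma), and with each array only centred on its own median it was -0.18 and no longer past the limits.

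Grm2, a group II receptor that also restrains glutamate release, had signals of 8.96 on ethanol 2 and 9.18 on ethanol 4, against 9.46 on control 1 and 9.44 on control 3. Both ethanol arrays were below the control arrays, and they were farther apart from each other than the control arrays were. The difference was -0.38 (SE 0.11, 95% interval -0.67 to -0.10), with an unadjusted p of 0.0195 and an adjusted p of 0.182 in limma, and it was -0.24 relative to the median of all probe sets. After quantile normalization it was -0.27 with an unadjusted p of 0.0467 and an adjusted p of 0.362 in limma, and with arrays centred on their medians it was -0.17 and not past the limits. Grm2 also rested on single arrays: it was no longer past the limits without ethanol 2, where the difference was -0.28, without control 1, where it was -0.37, or without control 3, where it was -0.40. Grm4 stayed past the limits with any of the arrays left out as deposited, and after quantile normalization it did so only without control 1.

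Among the other metabotropic receptors, Grm8, a group III receptor, came closest, with signals of 7.78 on ethanol 2 and 7.92 on ethanol 4, against 8.13 on control 1 and 8.08 on control 3. Its difference of -0.26 was just under the 1.2-fold limit (unadjusted p = 0.046, adjusted p = 0.22 in limma), and after quantile normalization it was -0.11. Grm7, the group III receptor found at the active zone of many terminals, had 9.06 on ethanol 2 and 9.03 on ethanol 4, against 9.26 on control 1 and 9.21 on control 3, a difference of -0.19 (adjusted p = 0.262 in limma) that shrank to -0.07 after normalization. Grm3, the group II receptor shared by neurons and astrocytes, had 11.15 on ethanol 2 and 11.35 on ethanol 4, against 11.36 on control 1 and 11.29 on control 3, a difference of -0.08 with overlapping groups. Grm5, a group I receptor that raises intracellular calcium from the postsynaptic side, had 10.64 on ethanol 2 and 10.78 on ethanol 4, against 10.92 on control 1 and 10.81 on control 3, a difference of -0.16 (95% interval -0.42 to 0.11). Grm6, known as the receptor of ON bipolar cells in the retina, had signals between 5.10 and 5.25 on the 4 arrays, near the low end of the scale. The means over 3 retinal marker genes were 4.77 on ethanol 2 and 4.88 on ethanol 4, against 5.07 on control 1 and 4.97 on control 3. The size of the Grm6 difference depended on the scaling, at 0.00405 as deposited and 0.16 after normalization, neither past the limits.

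Grid1 encodes a delta receptor, a synaptic organizer that binds cerebellin and is linked through it to neurexin. Its probe set had signals of 9.54 on ethanol 2 and 9.54 on ethanol 4, against 9.94 on control 1 and 9.88 on control 3. The ethanol arrays differed by 0.0046, a small part of the gap to the control arrays. The difference was -0.37 (SE 0.08, 95% interval -0.59 to -0.15), with an unadjusted p of 0.00876 and an adjusted p of 0.171 in limma, and it stayed past the limits with any 1 array left out. Relative to the median of all probe sets it was -0.22. After quantile normalization the difference was -0.261 (unadjusted p = 0.0231, adjusted p = 0.317 in limma), just short of 1.2-fold, and with arrays centred on their medians it was -0.16.

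**Figure D3:**
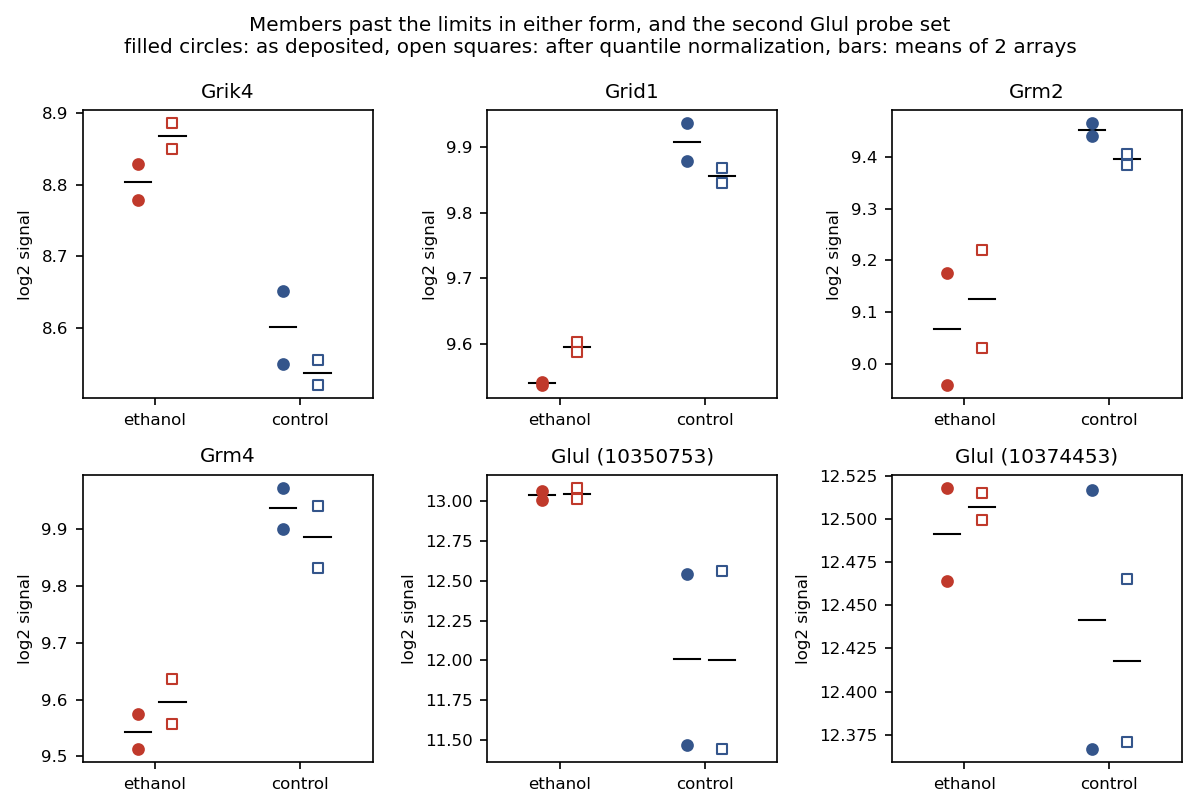
Log2 signals on the ethanol arrays (red, left) and the control arrays (blue, right) for the 5 probe sets past the limits in either form and for the second Glul probe set, as deposited (filled circles) and after quantile normalization (open squares), with the mean of 2 arrays as a bar. Each panel has its own vertical scale. In all 5 probe sets past the limits the groups are apart in both forms, and in the second Glul probe set only after normalization.

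The kainate receptors went in both directions. Grik4, a high-affinity subunit that forms channels together with other kainate subunits, had 8.78 on ethanol 2 and 8.83 on ethanol 4, against 8.65 on control 1 and 8.55 on control 3. Both ethanol arrays were above both control arrays, while most of the array lay lower on the ethanol arrays. The difference as deposited was 0.20 (SE 0.09, 95% interval -0.04 to 0.44) with an unadjusted p of 0.0789 and an adjusted p of 0.264 in limma, and it was not past the limits. After quantile normalization the signals were 8.85 on ethanol 2 and 8.89 on ethanol 4, against 8.55 on control 1 and 8.52 on control 3, and the difference of 0.33 (95% interval 0.12 to 0.54) was past the limits with an unadjusted p of 0.0106 and an adjusted p of 0.279 in limma. With arrays centred on their medians it was 0.41. The normalized difference was no longer past the limits without ethanol 4, where it was 0.31, or without control 3, where it was also 0.31.

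Grik3, a low-affinity kainate subunit, had 9.48 on ethanol 2 and 9.79 on ethanol 4, against 10.11 on control 1 and 9.89 on control 3. Its difference of -0.37 was as large as that of Grid1, but the arrays within each group were farther apart, and the test gave an unadjusted p of 0.0624 and an adjusted p of 0.243 in limma. After quantile normalization the difference was -0.26. Grik1, another low-affinity subunit, had 7.10 on ethanol 2 and 6.93 on ethanol 4, against 7.43 on control 1 and 7.16 on control 3, a difference of -0.28 (adjusted p = 0.281 in limma) that was -0.09 after normalization. Grik2, the low-affinity subunit of the hippocampal mossy fibre synapse, differed by 0.05, and Grik5, the second high-affinity subunit, by -0.13, and neither was past the limits in either form.

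The AMPA receptors gave no call. Gria1, Gria3 and Gria4 differed by -0.11, -0.09 and -0.12, close to the shift of the whole array, and Gria2, the subunit that limits calcium entry through the channel, by 0.01. Gria1, which had the smallest p of the 4, had signals of 11.60 on ethanol 2 and 11.64 on ethanol 4, against 11.77 on control 1 and 11.70 on control 3 (adjusted p = 0.454 in limma). The 95% intervals of the 4 subunits reached at most from -0.37 to 0.23, and the deposited difference of Grm4 lay outside all of them. The interval of Grm4, -0.62 to -0.16, overlapped each of the 4, and no contrast between genes was tested. After quantile normalization all 4 differences lay between -0.08 and -0.02, and the intervals of Gria1 and Gria3 reached -0.30, past the normalized difference of Grm4. Both ethanol arrays were then below both control arrays for all 4 subunits, an order that 24.9% of all probe sets had. Cnih2 and Cnih3, cornichon proteins that accompany AMPA receptors to the membrane and slow their closing, differed by -0.08 and -0.05, with overlapping groups. After normalization Cnih2 differed by -0.10, with both ethanol arrays below both control arrays, and Cnih3 by 0.06, with overlapping groups. Cnih2 had 11.82 on ethanol 2 and 11.89 on ethanol 4, against 12.00 on control 1 and 11.87 on control 3.

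**Figure D4:**
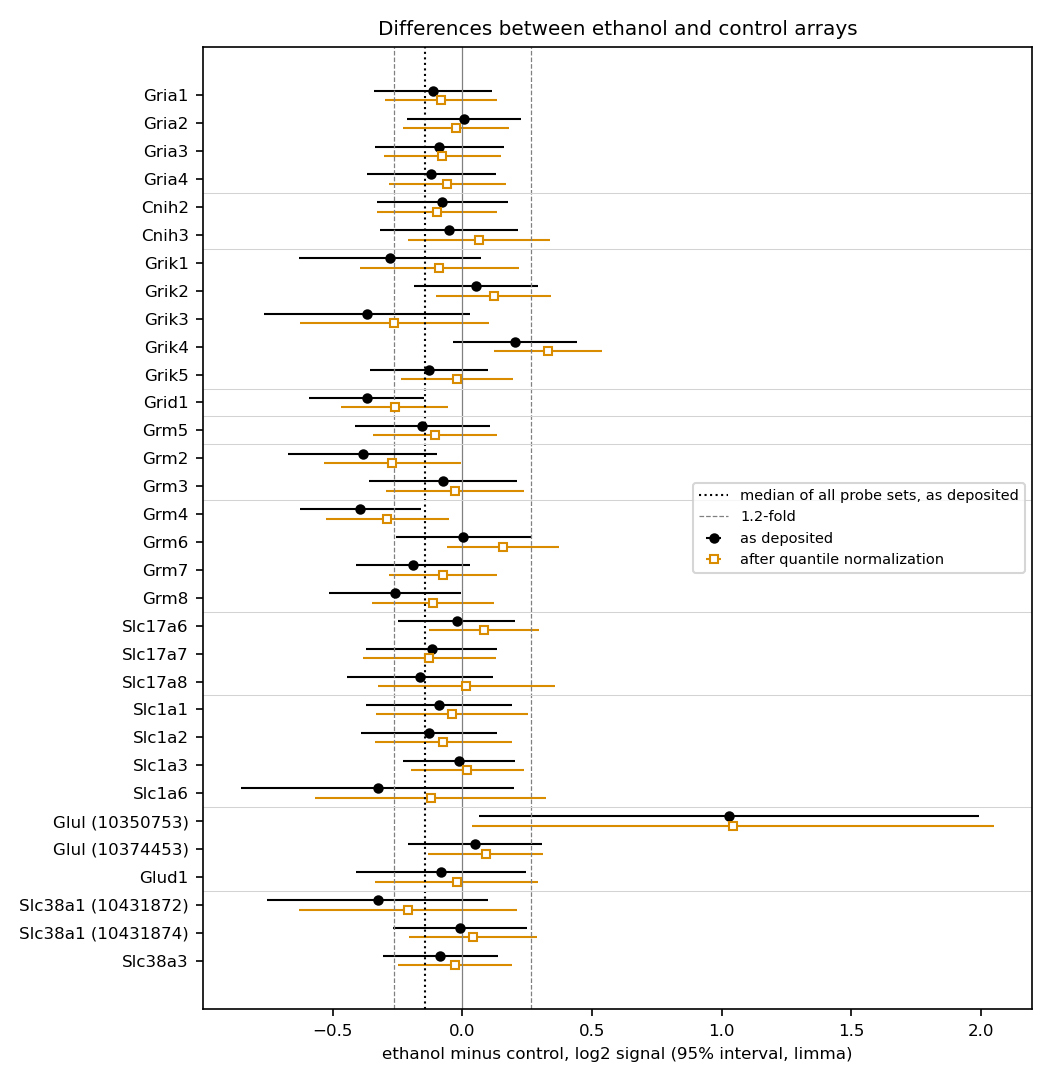
Difference between ethanol and control arrays (log2, ethanol minus control) with its 95% interval from limma for each glutamate probe set, as deposited (black circles) and after quantile normalization (orange squares). Dashed lines mark 1.2-fold and the dotted line marks the median of all probe sets as deposited, -0.15, and the intervals of the AMPA receptors and of the vesicular and plasma membrane transporters all cross 0.

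The vesicular transporters gave no call in either form. Slc17a7 (VGLUT1), the transporter of cortical and hippocampal terminals, had signals of 11.83 on ethanol 2 and 11.97 on ethanol 4, against 12.04 on control 1 and 11.99 on control 3. Its difference was -0.12 as deposited (95% interval -0.37 to 0.13) and -0.13 after quantile normalization. Slc17a6 (VGLUT2), prominent in thalamus and brainstem, differed by -0.02, above the shift of the whole array, and by 0.08 after normalization, with the ethanol arrays both higher. Slc17a8 (VGLUT3), found in scattered neurons that also use other transmitters, was dim, with 5.65 on ethanol 2 and 5.60 on ethanol 4, against 5.69 on control 1 and 5.89 on control 3, and its difference was -0.16 as deposited and 0.02 after normalization.

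No plasma membrane transporter was past the limits. Slc1a2 (GLT-1), which carries most glutamate uptake in the forebrain, had 12.37 on ethanol 2 and 12.52 on ethanol 4, against 12.62 on control 1 and 12.54 on control 3, a difference of -0.13 (95% interval -0.39 to 0.13). Slc1a3 (GLAST), the other astrocytic transporter, hardly varied between arrays, with 11.29 on ethanol 2 and 11.28 on ethanol 4, against 11.29 on control 1 and 11.31 on control 3, and a difference of -0.01 (95% interval -0.23 to 0.20). Slc1a1 (EAAC1), a neuronal transporter, differed by -0.09. Slc1a6 (EAAT4), the transporter of cerebellar Purkinje cells, had a difference of -0.33 that came from a single array, since control 1 had a signal of 7.11 and the other arrays had 6.48 on ethanol 2, 6.54 on ethanol 4 and 6.56 on control 3. The mean over 7 cerebellar marker genes was 10.47 on ethanol 2 and 10.39 on ethanol 4, against 10.48 on control 1 and 10.40 on control 3. Of these markers 6 had differences below 0 as deposited, beside 80.2% of all probe sets, and none of these was past the limits. Gabra6, a GABA receptor subunit of granule cells, was higher in both forms, by 0.51 and by 0.58. Some markers of other tissue were also past the limits. Of 4 olfactory bulb markers, Cdhr1 was higher in both forms, by 0.38 and 0.58, Th was past the limits after normalization, at 0.61, and Eomes was lower as deposited, at -0.42. Differences were below 0 in both forms for all 5 oligodendrocyte, 5 choroid plexus, 4 pituitary and 3 retinal markers. After normalization 51.0% of all probe sets were below 0. Cnp, of the oligodendrocyte markers, was past the limits in both forms, at -0.29 each time. Kl (choroid plexus), Pecam1 (endothelium) and Wfs1 (cortex and hippocampus) were lower past the limits as deposited only, at -0.42, -0.37 and -0.27. Of all probe sets, 17.9% were lower and 2.23% higher past the limits as deposited, and 5.87% and 5.71% after normalization. The part of these tissues and cells in the members' differences was not tested.

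Among the enzymes, the highest difference of any member belonged to Glul, glutamine synthetase, by which astrocytes make glutamine from glutamate and ammonia. One of its probe sets (10350753) had signals of 13.06 on ethanol 2 and 13.01 on ethanol 4, against 11.47 on control 1 and 12.54 on control 3. Both ethanol arrays were higher than the control arrays, but the control arrays were 1.07 apart, more than the whole difference between the groups, which was 1.03 (SE 0.36, 95% interval 0.06 to 1.99) with an unadjusted p of 0.0412 and an adjusted p of 0.213 in limma. A gap that large between the control arrays was found in 421 of the 35556 probe sets (1.18%). Only 7 of the 421 are named for a gene, this probe set among them. Without control 1 the difference was 0.49 and without control 3 it was 1.56. Without ethanol 2 it was 1.00 and without ethanol 4 it was 1.05. A fit with either control array left out no longer holds the gap between them, so it cannot weigh that gap. After quantile normalization of all 4 arrays the difference was 1.04.

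The other Glul probe set (10374453) did not show this difference. It had signals of 12.52 on ethanol 2 and 12.46 on ethanol 4, against 12.52 on control 1 and 12.37 on control 3, with overlapping groups and a difference of 0.05 (95% interval -0.21 to 0.31). After quantile normalization the difference was 0.09, not past the limits, and both ethanol arrays were above both control arrays. Of all probe sets 24% had that order after normalization. Both probe sets are annotated to the same gene, and their positions along the transcript are not given by the annotation. Whether they read the same transcripts was not tested. The mean log2 signal over 8 astrocyte markers was 10.06 on ethanol 2 and 10.13 on ethanol 4, against 10.22 on control 1 and 10.18 on control 3. Of these markers 1 (Fgfr3) was past the limits, lower as deposited, beside 17.9% of all probe sets. None was after quantile normalization, beside 5.87% lower and 5.71% higher of all. The part of astrocyte content in the Glul signals was not tested. Glud1, glutamate dehydrogenase, had 10.33 on ethanol 2 and 10.61 on ethanol 4, against 10.55 on control 1 and 10.55 on control 3, and its groups overlapped.

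The glutamine transporters included the other gene whose probe sets differed from each other. Of the Slc38a1 probe sets, one (10431872) had 9.14 on ethanol 2 and 8.72 on ethanol 4, against 9.29 on control 1 and 9.22 on control 3, so that its difference of -0.33 (adjusted p = 0.293 in limma) was set mostly by ethanol 4. The other (10431874) had 10.67 on ethanol 2 and 10.81 on ethanol 4, against 10.79 on control 1 and 10.71 on control 3, a difference of -0.01. Slc38a1 (SNAT1) takes up glutamine into neurons. Slc38a3 (SNAT3), which moves glutamine across the astrocyte membrane, had 10.47 on ethanol 2 and 10.49 on ethanol 4, against 10.53 on control 1 and 10.59 on control 3, a difference of -0.08 that was -0.03 after normalization.

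A further 3 lists of genes that work with these members were counted in the same way. Of 17 auxiliary and trafficking genes of AMPA and kainate receptors (18 probe sets), 2 probe sets (11.1%) were lower and 1 (5.56%) was higher in both forms, beside 17.9% and 2.23% of all probe sets as deposited and 5.87% and 5.71% after quantile normalization, with a median difference of -0.11 as deposited and -0.02 after it. Cacng8, the AMPA receptor auxiliary TARP gamma-8, had signals of 8.54 on ethanol 2 and 8.63 on ethanol 4, against 9.01 on control 1 and 8.98 on control 3, a difference of -0.41 (unadjusted p = 0.00705, adjusted p = 0.171 in limma). Pick1, a PDZ protein that binds GluA2 and takes part in its internalization, had 8.48 on ethanol 2 and 8.47 on ethanol 4, against 8.85 on control 1 and 8.88 on control 3, a difference of -0.39 (unadjusted p = 0.00669, adjusted p = 0.171 in limma). Neto2, an auxiliary subunit of kainate receptors, was the higher one, with 11.03 on ethanol 2 and 10.91 on ethanol 4, against 10.57 on control 1 and 10.74 on control 3, a difference of 0.32 (unadjusted p = 0.0367, adjusted p = 0.206 in limma). After quantile normalization these differences were -0.28 for Cacng8, -0.265 for Pick1 and 0.37 for Neto2.

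Of 12 signalling partners of the metabotropic receptors, 10 were measured by 11 probe sets and 0 were past the limits in limma in either form. Of all probe sets, 17.9% were lower and 2.23% higher as deposited, and 5.87% and 5.71% after normalization. Gnaq, the G protein subunit through which group I receptors act, was the only one with an unadjusted p under 0.05 as deposited, at a difference of -0.25. After normalization the difference of Gnaq was -0.20 and 0 of the list had such a p. Of all probe sets, 22.2% had such a p as deposited and 13.6% after normalization. The median over the list was -0.15 as deposited, no different from the whole array, and -0.10 after normalization. Of 12 genes of glutamate and glutamine metabolism (13 probe sets), 1 (7.69%) was lower and 0 were higher as deposited, beside 17.9% and 2.23% of all. After normalization 0 were past the limits, beside 5.87% lower and 5.71% higher of all. The median of this list was -0.15 as deposited and -0.04 after normalization. The lower one was Pcx, pyruvate carboxylase, which lets astrocytes make new glutamate carbon, with 8.62 on ethanol 2 and 8.72 on ethanol 4, against 9.06 on control 1 and 8.87 on control 3, a difference of -0.30 (unadjusted p = 0.0476, adjusted p = 0.222 in limma) that was -0.16 after normalization.

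Sequences upstream of the start site were read for members past the limits after quantile normalization that have a promoter in the RefSeq table (GRCm38.p6). The reason was that the study also asked about DNA methylation, which in mammals falls mainly on cytosines of CpG pairs. The study assayed methylation in adult offspring of mothers that drank ethanol voluntarily, and not in the injected pups. Methylation was not analysed here, and nothing in the array signals bears on these bases directly. Each line gives the 250 bases that end just before the start site, 5′ to 3′ on the strand of the gene, with every CG in capitals. Grm2 lies on the minus strand (chr9:106656110-106656359), Grik4 on the minus strand (chr9:42944372-42944621) and Glul on the plus strand (chr1:153899679-153899928).
Grm2: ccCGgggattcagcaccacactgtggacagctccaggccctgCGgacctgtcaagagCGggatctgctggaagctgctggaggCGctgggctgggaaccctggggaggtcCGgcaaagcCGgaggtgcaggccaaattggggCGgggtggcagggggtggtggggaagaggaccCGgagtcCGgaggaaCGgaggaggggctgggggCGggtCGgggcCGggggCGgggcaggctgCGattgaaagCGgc
Grik4: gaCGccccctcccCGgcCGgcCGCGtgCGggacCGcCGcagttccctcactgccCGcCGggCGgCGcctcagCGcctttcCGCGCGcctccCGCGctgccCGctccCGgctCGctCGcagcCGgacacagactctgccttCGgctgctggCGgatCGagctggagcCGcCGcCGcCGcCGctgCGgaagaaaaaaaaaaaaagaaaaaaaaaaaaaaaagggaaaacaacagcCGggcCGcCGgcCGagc
Glul: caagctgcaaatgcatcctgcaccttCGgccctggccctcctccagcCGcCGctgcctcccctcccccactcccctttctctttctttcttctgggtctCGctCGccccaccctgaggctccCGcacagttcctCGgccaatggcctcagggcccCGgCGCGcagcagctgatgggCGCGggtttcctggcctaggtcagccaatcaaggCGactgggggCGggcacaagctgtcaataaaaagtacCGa
The Grik4 stretch holds 36 CG pairs, the Grm2 stretch 16 and the Glul stretch 15. A promoter was found for 22 of the 31 genes, 27 promoters in all, each a window of 300 bases that includes the bases after the start site. The median number of CG pairs was 15 in these windows and 7 in the 32851 windows of the whole table. It ranged from 1 at Slc1a2 to 51 at Glud1, and the windows of Grik3 and Grik4, whose differences had opposite signs, held 50 and 42. The letters GGGCGG, the core of a GC box, were found on either strand in 17 of the 27 windows and in 35.7% of all windows, and the letters TATAAA in 1 of the 27 (Slc1a3) and in 13.6% of all windows.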

How the data were processed

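The authors hybridized pooled whole-brain RNA to Affymetrix Mouse Gene 1.0 ST arrays, summarized probes with the RMA algorithm, with GC adjustment and quantile normalization, and deposited log2 values of 35556 probe sets. The submitters' processing notes name Partek 6.6. Because the deposited columns have unequal medians, every fit was run on them and on columns quantile-normalized again. limma 3.58.1 in R 4.3.3 was fitted to each probe set (2 residual and 2.57 prior degrees of freedom), with Benjamini-Hochberg adjustment across the 35556 and no filter on dim signals, and was tested on simulated data. The number of arrays, 2 a group, limits the precision, and p-values measure the spread between pools.

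Genes come from the platform annotation, which names no genome build, and all 32 member probe sets matched a mouse gene table by Entrez ID with the same symbol. The values of each array are given for members past the limits and for 1 or 2 others of each role with the smallest p. Those of Slc1a3 and the second probe sets of Glul and Slc38a1 were added after their values were seen. The members and lists were chosen with earlier results of these data known, and lists were counted without a set test. The alternatives were arrays centred on their medians, groups taken from the treatment entry, the 2 arrays with agreeing labels alone, a mean log2 of at least 5, a trend of the prior variance with intensity, the ANOVA of the methods, an adjusted p of 0.05, and omission of each array. Omission of arrays and the treatment entry were also tried on quantile-normalized values, a choice made after seeing the data. Where an array was omitted, the spread of its group was assumed equal to that of the other.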

Additional observations from a re-analysis of the deposited data

How the results depend on the processing

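The 3 probe sets past the limits and lower in ethanol (17.9% of all probe sets) became 0 with arrays centred on their medians (3.91% of all), 0 with grouping by the treatment entry (0.686%), 0 with that grouping after quantile normalization (1.36%) and 0 at an adjusted p of 0.05, and numbered 1 to 4 with an array left out in either form. The 1 higher probe set (2.23% of all) became 2 after quantile normalization (5.71%), 3 after median centring (9.09%), and 0 under the methods' ANOVA (0.765%), under the treatment entry as deposited (0.917%) and after quantile normalization (1.41%), and at an adjusted p of 0.05, and there were 0 to 2 with an array left out. The median difference of the members relative to all probe sets, 0.0448 as deposited, was -0.0453 after quantile normalization, -0.0240 with the treatment entry, -0.0317 with both, and 0.0258 between the arrays whose labels agree, and ran from -0.0502 to 0.0585 with an array left out in either form. With the treatment entry Grid1 turned to 0.0265 (0.0191 after quantile normalization), the first Glul probe set to -0.511 (-0.596) and Grik4, after quantile normalization, to -0.000934. That grouping left Grm4 at -0.00546 and Grm2 at -0.0964 as deposited, and neither was past the limits. Under the methods' ANOVA, Grm2 and the first Glul probe set were no longer past the limits. The intensity trend and the dim-signal minimum changed no call of the 5 named probe sets. The causes were not tested. For the arrays whose labels agree no test and so no counts could be given. No paired analysis was possible because the labels do not say which pools match.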
